A study of Mus musculus with 26 samples.

Results

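The circadian clock of inguinal white adipose tissue was described here through 10 core clock genes, measured in refed mice that lacked the transcription factor ChREBP, and in WT mice. The genes were chosen by name, 3 from the positive limb of the clock (Arntl, Clock and Npas2) and 7 from the negative limb and its outputs (Per1, Per2, Per3, Cry1, Nr1d1, Nr1d2 and Dbp). They are 10 of the 26154 gene names in the deposited log2 table, and all 23 of their probes on the array were in it. Each gene is given by its brightest probe, the one with the highest mean log2 intensity over all arrays, unless another probe is named.

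RNA from subcutaneous inguinal fat of 26 male C57BL6/J mice was hybridised to 1-colour oligonucleotide arrays, with 1 array per mouse. All mice had been fasted for 24 h and refed for 18 h with food and drinking water that held 20% glucose. Total ChREBP KO mice (total KO, n = 7) were Mlxipl-null in every tissue and lacked ChREBPα and ChREBPβ, and WT mice labelled as of that line (total WT, n = 7) were their controls. ChREBPβ KO mice (β KO, n = 5) carried a CRISPR/Cas9 deletion of the exon specific to ChREBPβ, again in every tissue, and WT littermates of that line (β WT, n = 7) were their controls. Ages, the hour at which each tissue was taken and which mice shared a litter were not given in the sources used here. The methods of the study put the lights on from 8 am to 8 pm and blood sampling in general at around 8 am. Replicates are numbered as in the labels. The limma p-values set a difference against the spread between mice, taken from all 4 groups unless stated.

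The clock is a feedback loop of transcription. Arntl (BMAL1) pairs with CLOCK or NPAS2 and turns on genes with E-box elements, among them the Per and Cry genes, the REV-ERB genes Nr1d1 and Nr1d2, and Dbp. The PER and CRY proteins then inhibit the BMAL1 complex, while the REV-ERB proteins repress Arntl and Npas2, so that in a tissue whose clock runs Arntl and Dbp peak at opposite times of day. ChREBP, a glucose-responsive factor that induces lipogenic genes, also belongs to the helix-loop-helix family and binds E-box-like sequences with its partner MLX. In adipose tissue the clock sets daily rhythms of lipid storage and release, and meal times can shift it.

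The sequences below show which of the clock's own binding motifs lie in front of these genes. RefSeq windows of 300 bases (GRCm38.p6, 250 before the transcription start and 50 from it on) were at hand for 9 of the 10 genes, in 13 windows. The E-box CACGTG, the D-box TTATGTAA or TTACGTAA bound by DBP and its relatives, and the ROR and REV-ERB element TAGGTCA or TGGGTCA were searched on both strands. Each capital stretch is a motif. The Per3 window held 2 D-boxes, which began 205 and 158 bases before the start (chr4:151044666-151044915, minus strand, bases before the start only).
Per3: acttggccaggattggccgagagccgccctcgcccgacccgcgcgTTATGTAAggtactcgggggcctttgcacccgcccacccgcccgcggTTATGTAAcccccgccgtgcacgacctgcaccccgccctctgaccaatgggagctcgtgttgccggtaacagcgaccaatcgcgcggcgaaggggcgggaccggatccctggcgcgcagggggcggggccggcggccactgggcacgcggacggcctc
E-boxes stood in the windows of Per1 (100 bases around it, chr11:69098736-69098835, plus strand, 166 bases before the start) and Cry1 (100 bases, chr10:85185062-85185161, minus strand, 60 bases before the start).
Per1: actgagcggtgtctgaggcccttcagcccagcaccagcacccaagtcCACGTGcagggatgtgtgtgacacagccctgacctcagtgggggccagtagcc
Cry1: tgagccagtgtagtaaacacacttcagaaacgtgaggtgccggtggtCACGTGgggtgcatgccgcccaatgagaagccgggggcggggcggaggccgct
The ROR and REV-ERB element was found in 1 of the 2 windows of Arntl, 30 bases past its first transcribed base (27 bases, chr7:113207531-113207557, plus strand).
Arntl: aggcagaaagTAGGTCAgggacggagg
Over all 32851 windows of the table, 7.15% held the E-box, 1.06% a D-box and 6.45% a ROR and REV-ERB element. No other member window held one of these letters, which says nothing of sites elsewhere in those genes, and no motif was compared with the expression values by a test.

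The arrays were of even quality. The median spot signal was 59 to 107.5 against a background of 15 to 23, 70.2% to 76.5% of spots were well above background, and no spot was saturated. The brightest Mlxipl probe had lower values in every total KO array (13.63 to 13.95 in log2 intensity) than in any total WT array (15.77 to 16.53), and in every β KO array (13.93 to 14.36) than in any β WT array (15.24 to 16.18). The KO groups overlapped in it, so it separates KO from WT and not one KO from the other. A second probe was lower by 0.90 in total KO (limma, adjusted p = 2.34e-06) and by 0.68 in β KO (limma, adjusted p = 0.0596), and the third did not pass in either line (-0.13 and 0.04). Of 8 adipocyte markers 7 were higher in total KO than in total WT, and all 12 lymphocyte markers were lower. The mean log2 intensity of the lymphocyte markers was 11.06 to 12.76 in total WT, 8.13 to 11.39 in total KO, 7.48 to 8.35 in β WT and 7.46 to 9.05 in β KO. That of 12 skeletal muscle markers was 6.74 to 12.03 in total WT and 6.79 to 12.94 in total KO. In whole tissue, fewer cells of a type and less RNA per cell cannot be told apart.

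By the brightest probe of each gene, loss of both ChREBP isoforms went with higher Per2, Per3 and Nr1d2 in every mouse. Arntl and Npas2 were at levels not distinguishable from those of WT mice. By limma with Benjamini-Hochberg adjustment over all probes, 5 of the 10 genes were higher in total KO (Clock, Per2, Per3, Nr1d1 and Nr1d2) and 0 were lower. Of all gene names 45.9% passed that test, 25.7% as higher and 20.2% as lower, so the share of clock genes that passed was near the background. The median log2 difference was 0.62 for the 7 genes of the negative limb and -0.09 for the 3 of the positive limb, beside 0.05 over all genes.

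Per3, a PERIOD gene that strengthens the rhythm in peripheral tissues, moved most. Its log2 intensity was 8.22, 8.68 and 8.96 (lowest, median and highest) in total WT and 9.69, 9.996 and 10.79 in total KO. Every total KO mouse lay above every total WT mouse, with a gap of 0.74 between the groups. The log2 difference was 1.49 (SE 0.29), a 2.81-fold higher level (limma, adjusted p = 0.000156). The other 2 Per3 probes gave log2 differences of 1.23 and 1.01, both with non-overlapping groups.

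Per2, a repressor of BMAL1 that is also induced by glucocorticoids and feeding, was 9.09, 9.22 and 9.86 in total WT and 10.22, 10.56 and 10.90 in total KO. The groups did not overlap, and 1 total WT mouse, replicate 7, stood at the top of its group. The log2 difference was 1.29 (SE 0.17), a 2.44-fold higher level (limma, adjusted p = 1.91e-06). The probes of Per2 disagreed, since the second, dimmer one differed by only 0.09 (SE 0.06, limma adjusted p = 0.245), and with the mean of both probes the log2 difference was 0.69. Per2 and Per3 were the members whose differences also passed the test with lymphocyte and muscle scores as covariates (limma, adjusted p = 0.00157 and 0.0309).

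The REV-ERB genes rose less. Nr1d2 (REV-ERBβ) was 9.998, 10.26 and 10.46 in total WT and 10.57, 10.90 and 11.25 in total KO, with no overlap and a log2 difference of 0.62 (SE 0.19, limma adjusted p = 0.0106). Its other 2 probes differed by 0.61 and 0.72, both with overlapping groups. Nr1d1 (REV-ERBα) was 9.85, 10.25 and 10.60 in total WT and 10.36, 10.61 and 11.12 in total KO. Its groups overlapped, with 5 of 7 total KO mice above all total WT mice, and its log2 difference of 0.46 (SE 0.19, limma adjusted p = 0.0458) lay close to the threshold, which it missed in 13 of 26 fits that each left out 1 array. Of the 10 genes, 3 had groups that did not overlap, beside 14.6% of all gene names.

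Dbp, a PAR bZIP activator driven directly by BMAL1 and among the strongest oscillating transcripts of adipose tissue, was 12.10, 12.69 and 13.21 in total WT and 13.08, 13.69 and 14.22 in total KO. In 6 of 7 total KO mice it lay above all total WT mice. The log2 difference was 0.95 (SE 0.46), with a limma adjusted p of 0.0928. The spread in this fit came from all 4 groups, including the wide β WT group described below. In a fit of total KO and total WT alone the SE was 0.17 and the adjusted p was 0.000536. Cry1, whose protein inhibits the BMAL1 complex, was the gene of the negative limb with a negative difference. It was 5.87, 6.02 and 6.28 in total WT and 5.63, 5.84 and 6.03 in total KO, with a log2 difference of -0.27 (SE 0.11, limma adjusted p = 0.0573). Its second probe passed the test at -0.33 (limma, adjusted p = 0.00805). Cry1 also passed as lower in the fit of these groups alone (limma, adjusted p = 0.0181) and with the mean of both probes (-0.30, limma adjusted p = 0.00467). Per1, which light and glucocorticoids induce rapidly, was 12.20, 12.36 and 13.11 in total WT and 12.54, 12.84 and 13.19 in total KO, with a log2 difference of 0.29 (SE 0.16, limma adjusted p = 0.136).

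In the positive limb, Arntl was 8.56, 8.82 and 9.49 in total WT and 8.53, 8.82 and 9.01 in total KO. The groups lay on top of each other. The log2 difference was -0.10 with a 95% confidence interval of -0.79 to 0.58 (limma, adjusted p = 0.824), which narrowed in the fit of these groups alone to an SE of 0.13. Its 2 other probes gave -0.20 and -0.21. Npas2, the partner that can stand in for CLOCK, was dim (well above background on 24 of 26 arrays) and differed by -0.09 (95% confidence interval -0.36 to 0.19). Clock, whose mRNA oscillates little in most tissues, was 10.56, 10.66 and 10.84 in total WT and 10.64, 10.92 and 11.13 in total KO. Its log2 difference was 0.27 (SE 0.10, limma adjusted p = 0.0358), and its other 3 probes were also higher, by 0.31 to 0.58, 1 of them well above background on only 20 of 26 arrays.

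**Figure D1:**
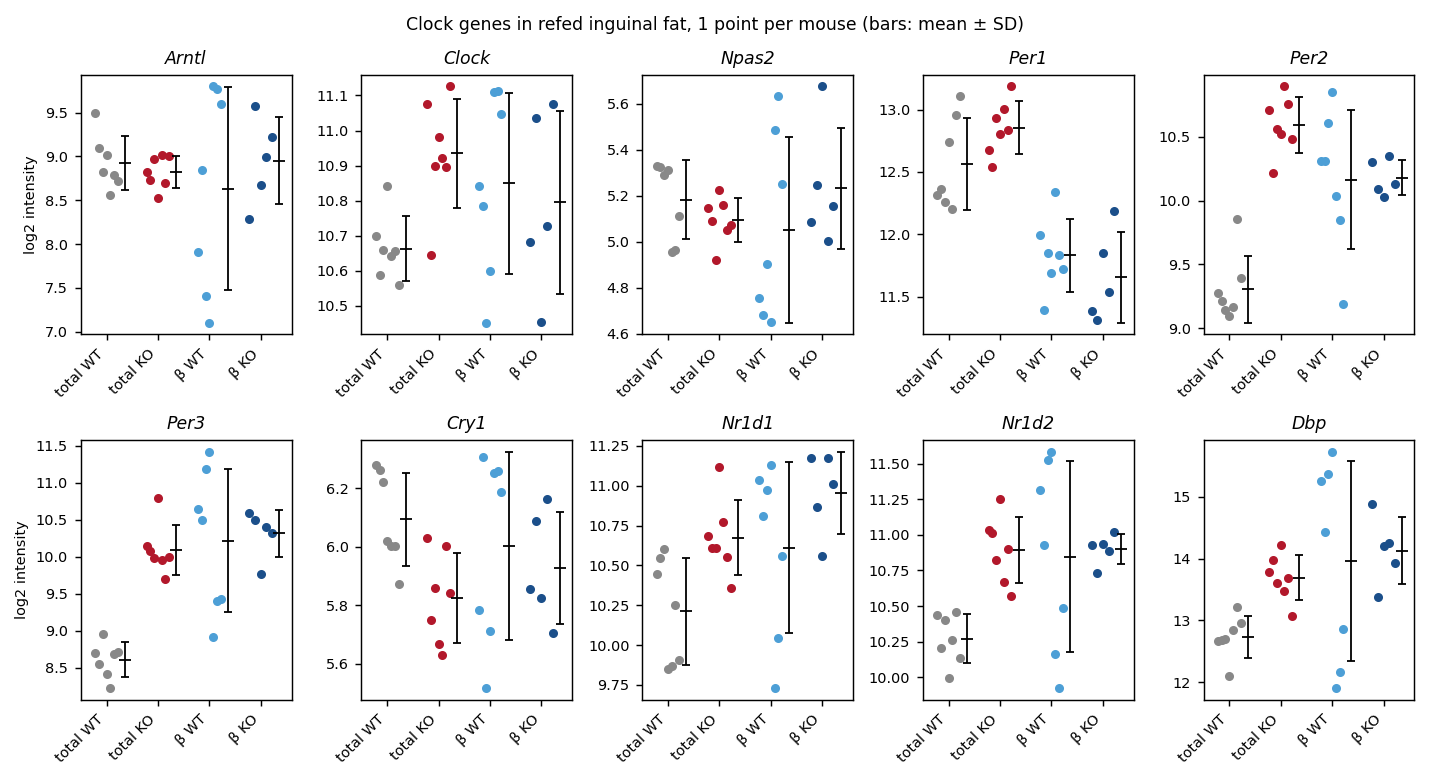
The log2 intensity of each of the 10 clock genes (y axis) in the 4 groups (x axis), with 1 point per mouse and the group mean ± SD beside the points. Per2, Per3 and Nr1d2 of the total KO mice lie above all total WT mice, and the β WT mice spread widely for Arntl, Per3, Nr1d2 and Dbp.

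Arrays were washed in 4 batches. Within each batch Per2 (0.97 to 1.498), Per3 (1.11 to 2.08), Nr1d2 (0.49 to 0.78) and Dbp (0.50 to 1.30) were higher in total KO than in total WT on the log2 scale. Each batch held 1 or 2 mice of each of these groups. For Per2, Per3 and Nr1d2 the direction was fixed beforehand, since the groups did not overlap. The difference of Arntl was above 0 in 2 of the 4 batches, between -0.56 and 0.10. The lymphocyte and muscle scores moved with the same comparison. With these scores as covariates the differences of Clock (0.22), Nr1d1 (0.32) and Nr1d2 (0.42) missed the threshold (limma, adjusted p = 0.405, 0.492 and 0.383), while those of Per2 (1.27) and Per3 (1.40) stayed about as large. The share of all gene names that passed in that fit is not given. Lymphocyte scores of these groups overlapped little, so that fit separated them from the genotype only in part. The adipocyte score did not overlap (15.37 to 15.86 in total WT, 16.11 to 16.27 in total KO) and was not a covariate.

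Loss of ChREBPβ alone left all 10 clock genes without a call. In β KO against β WT, 0 of 10 genes passed the adjusted threshold of limma and 0 had an unadjusted p of at most 0.05, where 0.0497% of all gene names passed the adjusted one and 7.71% the unadjusted one. The adjusted p-values of the 10 genes lay between 0.753 and 0.998. No gene had groups without overlap, beside 0.356% of all gene names. Per2 was 10.31, 10.09, 10.03, 10.35 and 10.13 in β KO replicates 1, 2, 4, 5 and 6, and 9.19, 10.31 and 10.85 (lowest, median and highest) in β WT. The β KO mice all fell inside the β WT range, with a log2 difference of 0.02 (95% confidence interval -0.38 to 0.41). Dbp was 14.88, 13.38, 14.21, 14.26 and 13.93 in the same β KO mice, again inside the β WT range of 11.91 to 15.73. For Per3 the difference was 0.10 (-0.54 to 0.74), for Dbp 0.17 (-0.86 to 1.21) and for Arntl 0.32 (-0.44 to 1.07). These intervals are wide, and for Dbp and Arntl they do not exclude a change as large as that of Dbp in total KO. Their spread came from all 4 groups. The SD between β WT mice was larger than in any other group for Per3 (0.97), Dbp (1.62) and Arntl (1.15). The intervals of these genes may therefore be too narrow, also that of Per3.

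**Figure D2:**
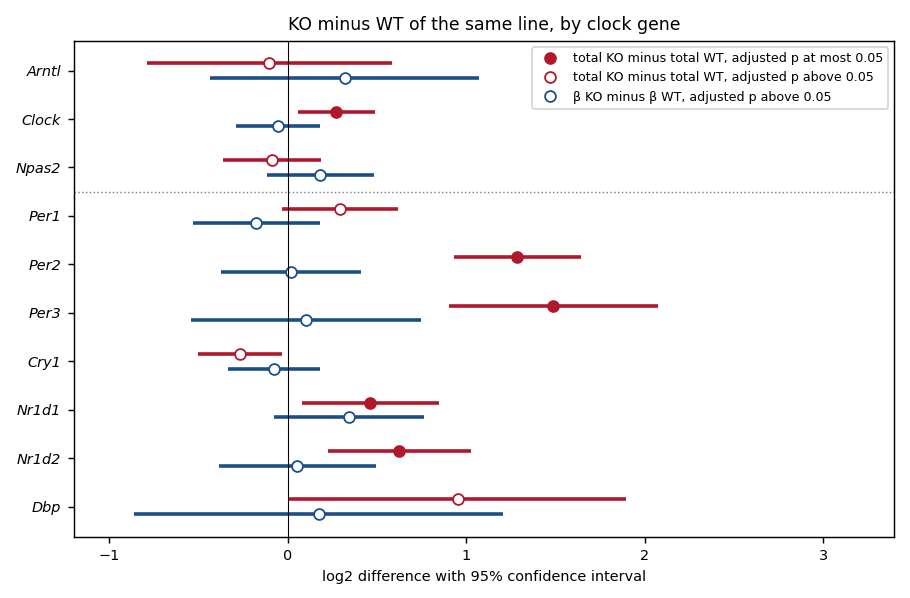
The log2 difference of KO minus WT of the same line (x axis, with 95% confidence interval) for each clock gene (y axis, positive limb above the dotted line), with filled points for an adjusted p of at most 0.05. Total KO (red) was higher for Clock, Per2, Per3, Nr1d1 and Nr1d2, while every β KO interval (blue) includes 0.

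The effects of both knockouts were compared directly by an interaction term. Per2 (-1.27, SE 0.26, limma adjusted p = 0.00106) and Per3 (-1.39, SE 0.42, limma adjusted p = 0.0202) had a smaller KO effect in the β line than in the total line, and these were 2 of 10 genes beside 23.2% of all gene names. The other 2 probes of Per3 also passed (-1.14 and -0.85), and the dim probe of Per2 did not (-0.02). Of the 4 probes of Clock 1 passed (-0.49). The other 8 genes did not pass by their brightest probes, so for Clock, Nr1d1 and Nr1d2 a difference between the KO effects was not shown. With lymphocyte and muscle scores as covariates the term remained past the threshold for Per2 (adjusted p = 0.0262 by limma) and not for Per3 (0.199), whose value of -1.28 was about as large as without them while its SE rose from 0.42 to 0.54.

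The WT groups of the lines also differed from each other in clock genes. In β WT against total WT, Per2 (0.86), Per3 (1.61), Nr1d2 (0.58) and Dbp (1.22) were higher on the log2 scale and Per1 (-0.73) was lower. That made 5 of 10 genes, beside 45.8% of all gene names, and limma adjusted p-values lay between 5.54e-05 and 0.0321. No gene of the 10 had groups without overlap, beside 16.9% of all gene names. The lymphocyte markers moved with this comparison too, all 12 being lower in β WT, and the line, its litters and any difference in collection cannot be told apart here. Without β WT replicate 4 the count fell to 3 genes. Within wash batch 3, where β WT had 1 mouse, Nr1d2 (-0.20) and Dbp (-0.32) turned the other way. The lymphocyte scores of the WT groups did not overlap, so a fit with them could not separate the scores from the line. With the lymphocyte and muscle scores as covariates 0 of 10 passed (limma, adjusted p of these 5 genes 0.236 to 0.820). The share of all gene names that passed in that fit is not given, so this count is not set against a background. The differences were then 1.30 for Per3 (SE 0.63), 0.97 for Dbp (SE 1.04), 0.74 for Per2, -0.47 for Per1 and 0.21 for Nr1d2, with larger SEs in this fit.

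Per1 followed its own order of levels. It was 11.31 to 12.19 in β KO and 11.39 to 12.34 in β WT, 12.20 to 13.11 in total WT and 12.54 to 13.19 in total KO. No β KO mouse reached the lowest total WT mouse, and 6 of 7 β WT mice lay below it. Total KO exceeded β WT by 1.02 (limma, adjusted p = 2.63e-05) and β KO by 1.20 (limma, adjusted p = 1.48e-05), and in each of these comparisons Per1 was the 1 member of 10 that passed, beside 31.5% and 27.1% of all gene names. It was also the only one of the 10 with groups that did not overlap in these comparisons, beside 11.2% and 14.3% of all gene names. Its second probe, dim and annotated to another transcript, did not follow this order. It differed by -0.02 between β WT and total WT (limma, adjusted p = 0.893), by 0.07 between β KO and total WT (0.631), by 0.24 between total KO and β WT (0.066) and by 0.16 between total KO and β KO (0.322). With the mean of both probes the Per1 differences were -0.38, -0.42, 0.63 and 0.68 in these comparisons, each past the threshold (limma, adjusted p at most 0.00248).

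The mean levels of Per3 and Dbp were lowest in total WT, then total KO, β WT and β KO. Those of Nr1d1 and Nr1d2 ran from total WT through β WT and total KO to β KO, and those of Per2 from total WT through β WT and β KO to total KO. Only the step from total WT to its neighbour passed the test for Per2, Per3 and Nr1d2, and only that from β WT to total WT for Per1. For the other 6 genes no neighbours in this order passed the test, whose spread came from all 4 groups. The step of Dbp from total WT to total KO did pass in the fit of these groups alone, as given above. In β KO against total WT, 6 of 10 genes passed (limma), with Per1 lower (-0.91) and Per2 (0.87), Per3 (1.71), Nr1d1 (0.75), Nr1d2 (0.63) and Dbp (1.39) higher, beside 46.4% of all gene names. Of these, all but Nr1d1 had groups without overlap, beside 23.4% of all gene names. All 12 lymphocyte markers were lower in this comparison too, and with the lymphocyte and muscle scores as covariates 0 of the 10 genes passed (limma), at 1.42 for Per3, 1.15 for Dbp, 0.77 for Per2, 0.41 for Nr1d1, 0.28 for Nr1d2 and -0.65 for Per1. The lymphocyte scores of β KO and total WT did not overlap, so that fit could not separate the scores from the groups. The share of all gene names that passed in it is not given. These comparisons share groups with the ones above.

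The β WT mice were far apart from each other, and the limbs of the clock took opposite ends. Arntl in replicates 1, 2, 3, 4, 6, 7 and 8 was 7.91, 8.85, 7.41, 7.10, 9.80, 9.77 and 9.60. Dbp in the same mice was 15.26, 14.43, 15.37, 15.73, 11.91, 12.16 and 12.86. The mouse with the lowest Arntl had the highest Dbp, the one with the highest Arntl the lowest, and the ranks of all 7 mice were exactly reversed between these genes. Per3 had the same ranks as Dbp, from 11.42 in replicate 4 to 8.91 in replicate 6. Npas2 in the same order was 4.76, 4.68, 4.90, 4.65, 5.48, 5.63 and 5.25, high where Arntl was high, and was not well above background in 2 of these mice.

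The SD between β WT mice was 1.15 for Arntl, 1.62 for Dbp, 0.97 for Per3 and 0.67 for Nr1d2, on the log2 scale. That was 3.75, 4.76, 4.09 and 3.88 times the SD between total WT mice, while the median ratio over all genes was 0.94. In β KO the SD of these genes was 0.49, 0.55, 0.32 and 0.11. For Arntl and Dbp this was above both total groups, and for Per3 and Nr1d2 it was not. Only 0.21% of all gene names had a larger SD than Dbp in β WT, and 0.70% had a larger one than Arntl. Per1 was the exception, with 0.79 times the SD of total WT. The muscle marker means of these mice were 12.07, 10.58, 11.32, 6.70, 8.02, 9.38 and 9.20 in the same order of replicates. The 3 highest belonged to mice with low Arntl, but replicate 4, with the lowest Arntl, had the lowest muscle mean, and the part of muscle in this spread was not tested. The lymphocyte means of the group spanned 7.48 to 8.35. β WT mice with high and with low Arntl shared wash batch 4 (7.91, 9.80 and 9.60). In the other batches Arntl was 7.10 (batch 1), 8.85 and 7.41 (batch 2) and 9.77 (batch 3). The part of wash batch in this spread was not tested.

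**Figure D3:**
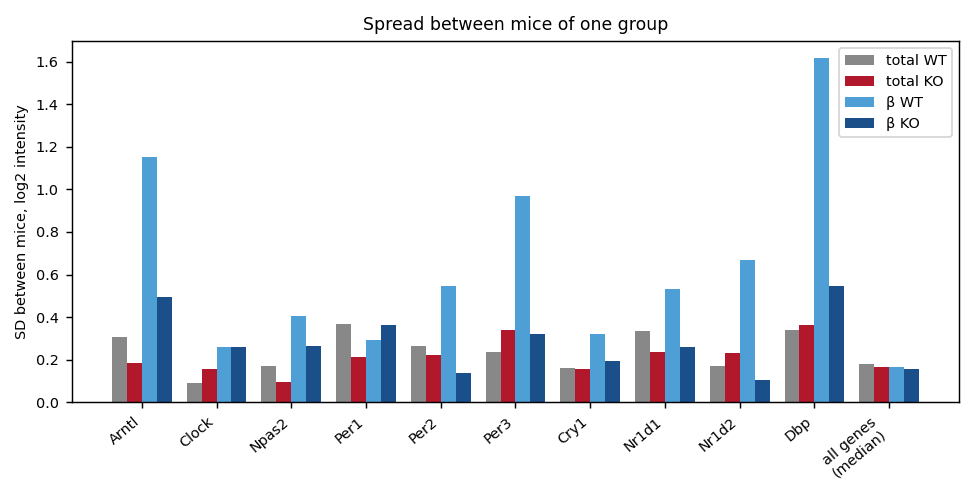
The SD between mice of one group (y axis, log2 intensity) for each clock gene and, at the right, the median SD over all genes, with 1 bar per group. The β WT bars reach 1.15 for Arntl and 1.62 for Dbp, beside a median of 0.17 over all genes in that group.

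The relation of Arntl to other clock genes was tested within each group of 7 mice, by exact two-sided permutation of the pairings, with 12 relations adjusted together by Benjamini-Hochberg. It was not tested in β KO, which had 5 mice. There too the mouse with the lowest Arntl (replicate 1, 8.29) had the highest Dbp (14.88). The one with the highest Arntl (replicate 2, 9.57) had the lowest Dbp (13.38). In β WT, Pearson's r of Arntl with Dbp was -0.96 (exact permutation p = 0.00317, adjusted 0.0191) and Spearman's rho was -1 (exact permutation p = 0.000397, adjusted 0.00238). With Per3 r was -0.97 (exact permutation p = 0.000992, adjusted 0.0119) and rho -1 (exact permutation p = 0.000397, adjusted 0.00238), and with Nr1d1 r was -0.87 (exact permutation p = 0.0117, adjusted 0.0381) and rho -0.96 (exact permutation p = 0.00278, adjusted 0.00833). These mice lay along a line from low to high Arntl. Without the 2 mice farthest from the median of Arntl, r was -0.97 for Dbp, -0.92 for Per3 and -0.86 for Nr1d1. Npas2 ran with Arntl (r = 0.82, exact permutation p = 0.0431, adjusted 0.0861, rho = 0.82, exact permutation p = 0.0341, adjusted 0.0683), which did not pass after adjustment.

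In total KO, where Arntl spanned 8.53 to 9.01, r of Arntl with Dbp was -0.86 (exact permutation p = 0.0127, adjusted 0.0381) and rho -0.86 (exact permutation p = 0.0238, adjusted 0.0571). Without the 2 mice farthest from the median it was -0.76. The other 3 relations of total KO did not pass, with r of -0.57 (exact permutation p = 0.168, adjusted 0.253) and rho of -0.39 for Per3, whose r was 0.33 without the 2 mice farthest from the median. There r was -0.61 (exact permutation p = 0.137, adjusted 0.235) and rho -0.14 for Nr1d1, and r -0.47 (exact permutation p = 0.299, adjusted 0.359) and rho -0.14 for Npas2. In total WT r of Dbp was -0.41 (exact permutation p = 0.352, adjusted 0.384) and rho -0.75 (exact permutation p = 0.0663, adjusted 0.114). There Npas2 ran with Arntl by rank (rho = 0.96, exact permutation p = 0.00278, adjusted 0.00833), with r of 0.75 (exact permutation p = 0.0316, adjusted 0.0757). Per3 had no such relation to Arntl in total WT (r = 0.22, exact permutation p = 0.640, adjusted 0.640, rho = 0.14, exact permutation p = 0.783, adjusted 0.783), nor had Nr1d1 (r = 0.49, exact permutation p = 0.264, adjusted 0.352, rho = 0.43, exact permutation p = 0.354, adjusted 0.527). Whether these relations differ between groups was not tested.

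**Figure D4:**
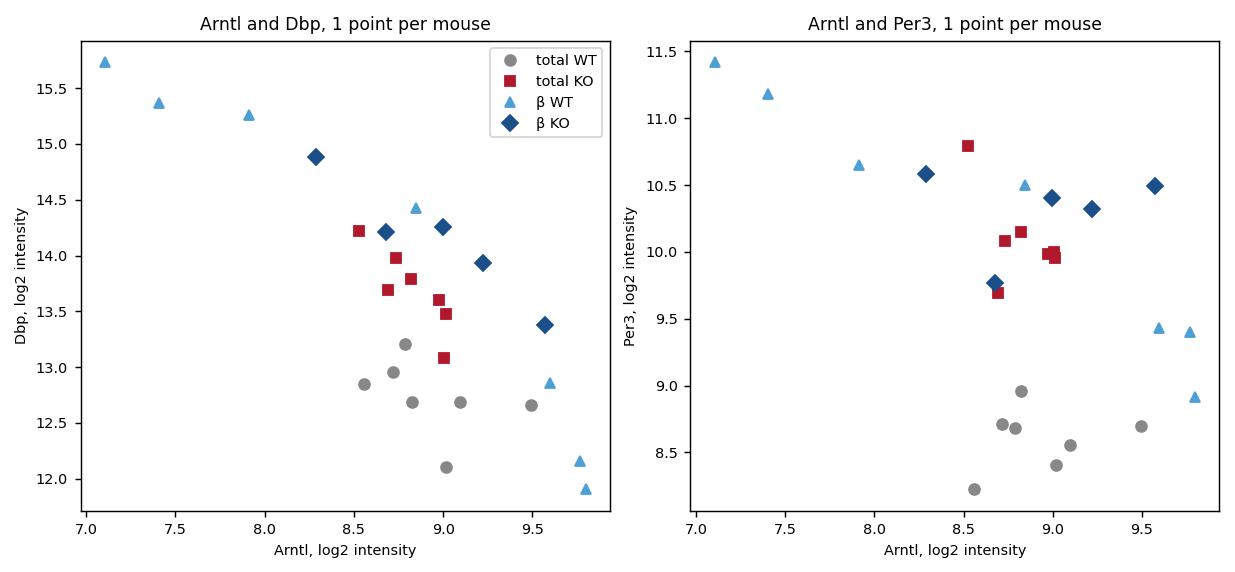
Log2 intensity of Arntl (x axis) against Dbp (left) and Per3 (right), with 1 point per mouse and a symbol for each group. The β WT mice run from 7.10 in Arntl and 15.73 in Dbp to 9.80 and 11.91, and total KO mice lie above total WT mice in Per3 at overlapping Arntl levels.

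The limbs were also set against each other as a limb difference, the mean centred log2 intensity of the 3 genes of the positive limb minus that of the 7 of the negative limb, which was given no test. Cry1 was counted in the negative limb, although its peak lies between those of the limbs. It was 0.10 to 0.81 in total WT and -0.50 to 0.06 in total KO, so that these groups did not overlap. In β WT it was -0.91, -0.40, -1.25, -1.54, 1.06, 1.08 and 0.73 in replicates 1, 2, 3, 4, 6, 7 and 8, and in β KO it lay between -0.55 and 0.36. The β WT values left a gap between -0.40 and 0.73, and the other 3 groups together spanned -0.55 to 0.81. Within each of the 4 wash batches the mean of total KO was below that of total WT, by a change of -0.37 to -0.87. That direction was fixed beforehand by the lack of overlap.

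The spread among β WT mice was wide in genes of both limbs, with an SD of 1.15 for Arntl and 1.62 for Dbp, and smaller for Clock (0.26). Between total KO and total WT the members that differed most, Per3 and Per2, were in the negative limb, while Arntl differed by -0.10. Clock of the positive limb was also higher (0.27), and Cry1 of the negative limb had a negative difference (-0.27) that did not pass by its brightest probe. Between mice, with group means subtracted, Cry1 ran with Arntl (r = 0.73, and 0.38 without the β WT group). The part of the hour of tissue collection or of feeding before it in the β WT spread, which lay among mice of 1 genotype group, was not tested, since neither is given mouse by mouse. For the total KO difference, they cannot be told apart from the genotype.

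**Figure D5:**
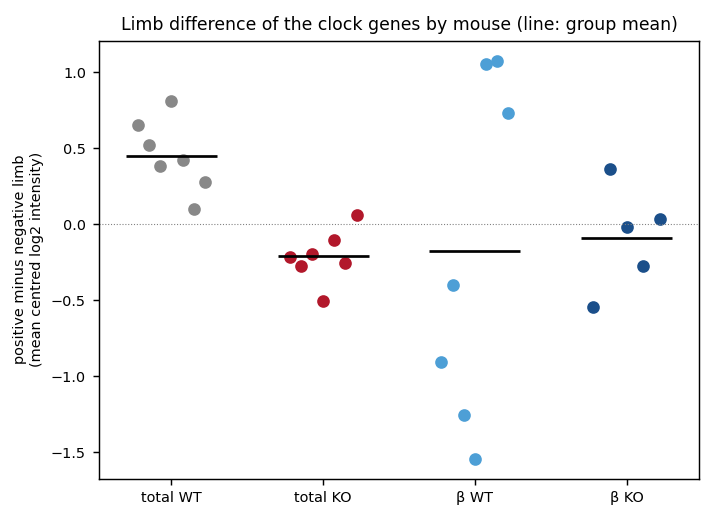
The limb difference (y axis, positive minus negative limb in mean centred log2 intensity) of each mouse in the 4 groups (x axis), with lines at the group means. The total WT mice lie between 0.10 and 0.81, the total KO mice between -0.50 and 0.06, and the β WT mice spread from -1.54 to 1.08.

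The genes most like Arntl and Dbp in their variation between mice were ranked by Pearson's r over all 26 arrays after the group means had been subtracted, among 17687 genes with a RefSeq symbol. This is a description, and the points share groups and arrays. Ciart, a repressor of the clock, had the lowest r to Arntl (-0.93) and Tef, a PAR bZIP relative of Dbp, the next lowest (-0.93). For Dbp, Tef was highest (0.98) and Ciart second (0.94). Without the β WT group these were -0.81 for Ciart and -0.68 for Tef with Arntl, and 0.96 for Tef and 0.84 for Ciart with Dbp. At the other end Dtx4 (0.87) and Sh3pxd2a (0.86) were most like Arntl. Among the members, r to Arntl was -0.93 for Dbp, -0.85 for Nr1d2, -0.79 for Per3, 0.74 for Clock, 0.73 for Cry1, -0.65 for Per2, 0.64 for Npas2, -0.58 for Nr1d1 and 0.11 for Per1. Without the β WT group it was -0.76 for Dbp, -0.29 for Nr1d2, -0.02 for Per3, 0.54 for Clock, 0.38 for Cry1, -0.10 for Per2, 0.15 for Npas2 and 0.05 for Nr1d1, so that most of these values rested on the β WT mice.

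Of 23 other clock genes listed, 22 were in the table. In total KO 9 were higher and 5 lower by limma, beside 45.9% of all gene names that passed in either direction. The higher ones included the PAR bZIP gene Hlf (1.38), the Arntl activator Rora (0.90), Nfil3 (0.67), which binds D-boxes as a repressor, Tef (0.66) and Cry2 (0.52). The lower ones included the E-box repressors Bhlhe40 (-1.86) and Bhlhe41 (-0.62). In β WT against total WT 11 were higher and 1 lower, with Tef (0.89), Hlf (1.04) and Cry2 (0.72) among the higher, beside the 45.8% of all gene names that passed in that comparison. Bhlhe41, lower in total KO, was higher in β WT (0.53), and Bhlhe40 did not pass between the WT groups. In β KO against β WT 0 of 22 passed (limma), beside 0.0497% of all gene names.

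Among 9 clock outputs in the table, 4 were higher and 2 lower in total KO, with Usp2 (1.68), a deubiquitinase under clock control, and Pfkfb3 (1.33), an activator of glycolysis, highest, and Rgs16 (-2.43) and Tspan4 (-0.70) lower. Of 8 glucocorticoid-responsive genes 3 were higher, Zbtb16 (1.86), Fkbp5 (0.74) and Tsc22d3 (0.44), and 2 lower, Cebpd (-0.47) and Sgk1 (-0.46). Of 7 body-temperature genes, among them Cirbp and Rbm3, 0 passed in total KO and 1 of 7 was lower in β WT than in total WT, Hsp90aa1 (-0.50). The shares called in total KO lay beside the 45.9% of all gene names that passed there. In β KO against β WT 0 of the genes in these lists passed (limma), beside 0.0497% of all gene names.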

How the data were processed

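Per the labels and the methods of the study, Cy3-labelled cRNA was hybridised to Agilent arrays and spot intensity values were read with Agilent Feature Extraction 10.10.1.1. The authors then deposited a log2 intensity table of 40168 probes, made by spot filtering, quantile normalization and the median of replicate probes. Each table column correlated with the log2 median intensity of its own deposited scanner file at r above 0.999, which settled scale and sample. The table held 97 missing values. Column medians were 7.76 to 7.77.

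Groups came from sample titles. limma 3.58.1 (lmFit and eBayes, R 4.3.3) fitted 4 group means to all 26 arrays, with no covariate. Benjamini-Hochberg adjustment ran over all probes, and a call needed an adjusted p of at most 0.05. The fit was tested on simulated data. Permutations used Python 3.11.15. The members and lists were chosen with earlier results of these data known. Members, called list genes and the 5 genes nearest each end of the likeness rankings could be named. Arrays sat on 15 slides, in 4 wash batches and 2 scan days. Alternatives covered scaling, background, filters, batches, covariates and left-out arrays. One array per mouse limits precision.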

Additional observations from a re-analysis of the deposited data

Results flagged for a closer look

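Per2 in total WT replicate 7 (9.86) lay above the rest of its group, whose next value was 9.39, by a gap larger than Dixon's 95% limit, and Per3 in total KO replicate 4 (10.79) did so against a next value of 10.15. These were 2 flags in 40 groups of values, and chance alone flags about 1 in 20 groups. Without total WT replicate 7 or total KO replicate 4, Per2 and Per3 remained called in total KO against total WT, with limma adjusted p at most 8.35e-06 for Per2 and 0.000583 for Per3 over all fits that left out 1 array.

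The KO effect of Per2 (-1.27 in the β line minus the total line) and of Per3 (-1.39) differed between the lines by the interaction term of limma.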

How the results depend on the processing

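The number of clock genes called by limma in total KO against total WT was 5, and 2 with lymphocyte and muscle scores as covariates. It was 7, with Cry1 as lower, with processed signals, the mean of all probes or the groups compared alone. It was 3 to 6 with 1 array left out, 3 without total WT replicate 6 or 7 or total KO replicate 4. With those covariates it was 1 in place of 2 for the difference between KO effects (2 to 3 with 1 array left out), 0 in place of 5 for β WT against total WT and 0 in place of 6 for β KO against total WT. For β WT against total WT it was 3 with the groups compared alone, and 3 to 6 with 1 array left out, 3 without β WT replicate 4. For total KO against β WT it was 1, 2 with the mean of all probes, and 1 to 2 with 1 array left out, 2 without β WT replicate 3 or 4 or total KO replicate 2. For total KO against β KO it was 1, and 2 with the groups compared alone or, chosen after seeing the data, without the β WT group. It was 1 to 2 with 1 array left out, 2 without β WT replicate 8. In β KO against β WT it was 0 in every fit. The share of all gene names that passed in each alternative fit is not given beside these counts. Within wash batch 3, Nr1d2 (-0.20) and Dbp (-0.32) reversed for β WT against total WT. These values rested on 1 β WT mouse, replicate 7, and 2 total WT mice, and the cause was not tested.

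Deviations of same-numbered mice correlated at -0.36 to 0.51, which did not show a pairing by replicate number and cannot exclude one. In the total line, the KO mice of replicates 4 (0.51) and 8 (0.25) were closest to the WT mouse of the same number. With the replicate block 4 genes were called in total KO and 2 in the difference between KO effects, and 0 in β KO. Nr1d1 was lost in that fit.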
